A study of Homo sapiens with 4 samples.

Results

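The 7 genes described here, LINC01108, LINC01508, EBF2, PHETA2, NPFFR2, FAR2P2 and C5orf63, had far higher read counts in both libraries labelled CPT2 KO than in both labelled WT. They were taken by name from a gene count table of 59050 genes. They were chosen by their read counts in these same 4 libraries, so their levels are given as a description with no test.

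The 4 libraries were RNA-seq of total RNA from HUES8, an established human embryonic stem cell line grown on Matrigel in mTeSR1 medium. The genotype label reads WT for 2 libraries and CPT2 KO for 2, while the treatment label reads WT for all 4. They are called WT-labelled and KO-labelled libraries below. CPT2 is the carnitine palmitoyltransferase of the inner mitochondrial membrane that hands long-chain acyl groups over to fatty acid oxidation. How CPT2 was disrupted, how many clones were used and whether replicates were separate cultures were not stated in the sources used here, so a p-value covers no more than the variation among these libraries, which can be technical.

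CPT2 itself went against its label. Its transcript was counted 52 and 72 times in the WT-labelled libraries and 233 and 170 times in the KO-labelled ones, a log2 fold change of 1.78 ± 0.27 (SE) with an adjusted p of 0.0218 in the quasi-likelihood test of edgeR. CPT2 exons overlap those of AL606760.2 and C1orf123, so its counts can include reads of them or lack reads of its own. The call for CPT2 was lost when either one of the KO-labelled libraries was omitted (log2 fold changes of 1.69 and 1.87). A disrupted gene can still be transcribed, and the labels do not place the lesion, so every direction below is between libraries as labelled. Library totals ran from 16887789 to 20460031 counts. WT-labelled replicate 1 stood apart. It differed from its own replicate by a chi-square of 39.6 for each degree of freedom, against 10.5 within the KO-labelled pair. WT-labelled replicate 2 was nearer to the KO-labelled libraries, at 12.3 and 12.6, than to its own replicate. The 11 pluripotency markers gave no call, and their summed level was 8981.6 and 9869.6 CPM, which are counts divided by library size, in the WT-labelled libraries and 9768.9 and 10995.4 CPM in the KO-labelled ones. The unadjusted p was under 0.05 for 1 of those 11, and DESeq2 called 0.

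The 7 genes come from unrelated families. Long intergenic noncoding RNAs such as LINC01108 and LINC01508 are spliced transcripts that encode no known protein, and many are restricted to few cell types, embryonic stem cells among them. EBF2 belongs to the early B cell factor family of helix-loop-helix transcription factors, known for roles in brown fat identity, neuron maturation and bone. NPFFR2 is a G protein-coupled receptor for RFamide peptides such as neuropeptide FF, known from pain and opioid signalling. PHETA2 is an adaptor with a pleckstrin homology domain that binds the inositol phosphatase OCRL on endosomes. FAR2P2 is a pseudogene copy of FAR2, a reductase that makes fatty alcohols for wax and ether lipids. C5orf63 encodes a small glutaredoxin-like protein of little known function.

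On GRCh38, with positions from GENCODE 29, the 7 genes lie on 7 chromosomes. LINC01108 is at chr6:14280127-14285454 on the minus strand and LINC01508 at chr9:90300902-90433505 on the minus strand, both annotated as lincRNA. PHETA2 is at chr22:42074251-42079441 on the plus strand, NPFFR2 at chr4:72031804-72148067 on the plus strand and C5orf63 at chr5:127042558-127073492 on the minus strand, all annotated as protein-coding like EBF2. FAR2P2 is a transcribed unprocessed pseudogene at chr2:130416755-130431363 on the minus strand. Only FAR2P2 has exons that overlap those of another gene, namely KLF2P2 and CYP4F62P.

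RefSeq (GRCh38.p14) promoter windows of 3 of the 7 genes are given here, from 250 bases before to 50 bases after the gene start. That the other windows are not given does not mean that RefSeq lacks them. The 3 windows are shown because genes that were high in the same libraries began at very unlike starts. The sequences run 5′ to 3′ on the minus strand of each gene, and capitals mark CG dinucleotides.
LINC01108 promoter, chr6:14285405-14285704: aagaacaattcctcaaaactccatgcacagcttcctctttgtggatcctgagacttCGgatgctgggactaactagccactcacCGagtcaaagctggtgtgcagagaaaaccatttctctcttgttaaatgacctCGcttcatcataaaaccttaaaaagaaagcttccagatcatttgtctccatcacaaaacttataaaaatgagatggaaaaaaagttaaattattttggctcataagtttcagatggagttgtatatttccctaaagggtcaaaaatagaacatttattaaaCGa
LINC01508 promoter, chr9:90433440-90433739: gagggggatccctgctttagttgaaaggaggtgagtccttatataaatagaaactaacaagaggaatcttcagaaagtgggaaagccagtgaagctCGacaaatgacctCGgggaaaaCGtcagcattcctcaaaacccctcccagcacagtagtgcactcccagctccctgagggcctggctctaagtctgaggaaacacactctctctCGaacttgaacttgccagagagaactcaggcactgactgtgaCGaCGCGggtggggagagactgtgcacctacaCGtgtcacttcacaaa
C5orf63 promoter, chr5:127073453-127073752: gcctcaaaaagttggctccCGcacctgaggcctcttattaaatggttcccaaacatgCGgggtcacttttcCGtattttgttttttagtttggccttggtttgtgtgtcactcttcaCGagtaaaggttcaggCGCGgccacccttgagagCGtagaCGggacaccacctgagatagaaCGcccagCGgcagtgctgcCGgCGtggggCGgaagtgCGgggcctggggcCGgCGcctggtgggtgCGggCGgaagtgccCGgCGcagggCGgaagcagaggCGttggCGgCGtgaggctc

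The window of C5orf63 is CG-rich and that of LINC01108 is CG-poor. LINC01108 has 4 CG dinucleotides at 36.7% GC, LINC01508 has 8 at 51.0% GC and C5orf63 has 24 at 61.7% GC. Over 35116 RefSeq promoter windows of the same length the median was 14 CG dinucleotides, and 24.5%, 39.3% and 66.1% of them had fewer than these 3 genes in turn. Motifs were searched on both strands. CAGAC, the half-site of SMAD proteins, occurs 1 time in the LINC01508 window, in neither of the others, and in 45.3% of all windows. AATNCACA for FOXH1 (3.31% of all windows), ATGCAAAT for POU factors (1.77%) and TCCC and GGGA with 2 free bases between them for EBF factors (1.21%) match none of the 3 windows. The 1 match found overlaps no other motif. A match or its absence describes these letters in this window and nothing more.

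LINC01108 was the most abundant of the 7 genes in every library. It was counted 82 and 162 times in the WT-labelled libraries and 3192 and 3434 times in the KO-labelled ones, or 4.44, 7.86, 158 and 207 CPM. The groups did not overlap, and the lower KO-labelled library stood 20.1 times above the higher WT-labelled library. RefSeq lists LncRNA-ES1 as another name of this gene, which was catalogued among long noncoding RNAs of embryonic stem cells. In TPM, which also divides by gene length, it went from 6.11 ± 1.92 (SD, n = 2) to 165 ± 26.9 (SD, n = 2). Its mean CPM stood at percentile 35.8 of the tested genes in the WT-labelled libraries and at percentile 94.3 in the KO-labelled ones. The fitted log2 fold change was 4.88 ± 0.27 (SE).

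LINC01508 was counted 5 and 13 times in the WT-labelled libraries and 183 and 130 times in the KO-labelled ones, or 0.271, 0.631, 9.06 and 7.83 CPM. Both WT-labelled libraries were low, and the groups were at least 12.4 times apart. Its level was 0.819 ± 0.404 TPM (SD, n = 2) against 14.1 ± 1.83 TPM (SD, n = 2). The log2 fold change was 4.18 ± 0.43 (SE), and it was 4.93 without WT-labelled replicate 2, the library with the higher of the low counts.

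EBF2 was the only transcription factor among the 7 genes. Its gene spans chr8:25841730-26045397 on the minus strand. It had 8 and 14 counts in the WT-labelled libraries and 356 and 180 in the KO-labelled ones, or 0.434, 0.68, 17.6 and 10.8 CPM. Every KO-labelled library was at least 16.0 times above every WT-labelled library. The level per length went from 0.289 ± 0.0671 TPM (SD, n = 2) to 6.75 ± 2.44 TPM (SD, n = 2), and the log2 fold change was 4.65 ± 0.42 (SE).

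NPFFR2 was the only gene of the 7 with no count in either WT-labelled library. It had 128 and 56 counts in the KO-labelled ones, or 6.34 and 3.37 CPM. At this depth, a count of 0 allows up to 0.163 and 0.146 CPM in the WT-labelled libraries, taken as 3 counts each. Set against the higher of those limits, the lower KO-labelled library was at least 20.8-fold higher. The level of NPFFR2 in the KO-labelled pair was 6.94 ± 3.16 TPM (SD, n = 2).

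PHETA2 had 4 and 7 counts in the WT-labelled libraries and 118 and 73 in the KO-labelled ones, or 0.217, 0.34, 5.84 and 4.4 CPM. The KO-labelled libraries were close to each other and at least 12.9 times above the WT-labelled ones. The level went from 0.418 ± 0.0972 TPM (SD, n = 2) to 7.02 ± 1.58 TPM (SD, n = 2), with a log2 fold change of 4.16 ± 0.51 (SE).

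FAR2P2 had 5 and 3 counts in the WT-labelled libraries and 107 and 67 in the KO-labelled ones, or 0.271, 0.146, 5.3 and 4.04 CPM. The groups did not overlap, with at least 14.9 times between them. In TPM this was 0.148 ± 0.0738 against 2.92 ± 0.635 (SD, n = 2 each), and the log2 fold change was 4.48 ± 0.55 (SE).

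C5orf63 started from the same low counts as FAR2P2, 5 and 3, and had 122 and 36 counts in the KO-labelled libraries. In CPM these were 0.271, 0.146, 6.04 and 2.17. The KO-labelled libraries differed most from each other for this gene, and the lower of them was 8.0 times above the higher WT-labelled library. The level was 0.11 ± 0.0551 TPM (SD, n = 2) against 1.93 ± 1.33 TPM (SD, n = 2). The log2 fold change of 4.32 ± 0.75 (SE) became 3.36 without KO-labelled replicate 1.

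**Figure D1:**
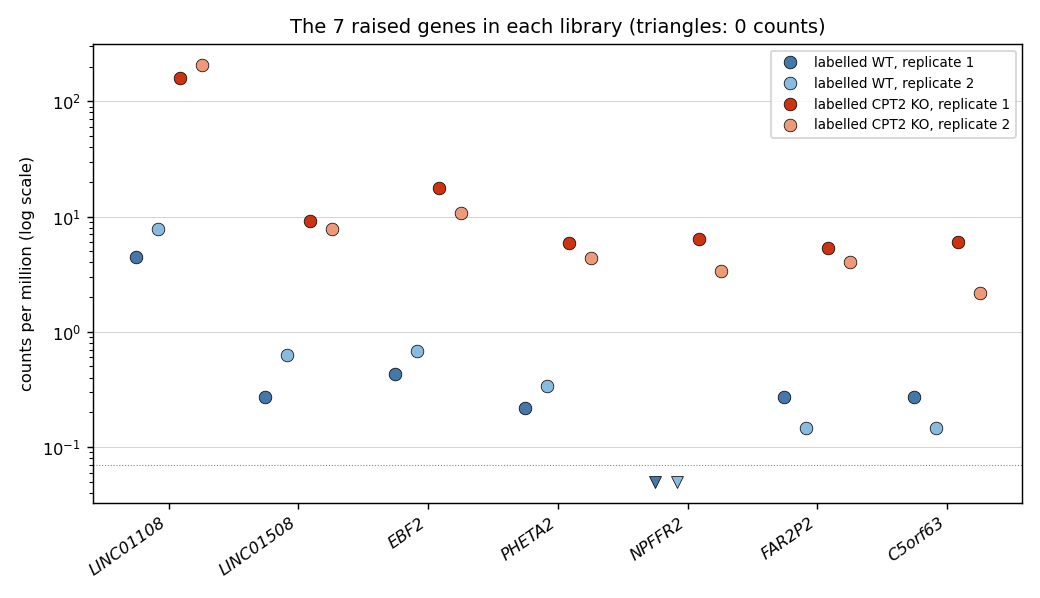
CPM (vertical log axis) of the 7 genes in each of the 4 libraries, with 1 point per library and triangles below the dotted line for 0 counts. For every gene both KO-labelled libraries (red) lie above both labelled WT (blue), and LINC01108 reaches 158 and 207 CPM.

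Per length, the order in the KO-labelled libraries was LINC01108 (165 TPM), LINC01508 (14.1 TPM), PHETA2 (7.02 TPM), NPFFR2 (6.94 TPM), EBF2 (6.75 TPM), FAR2P2 (2.92 TPM) and C5orf63 (1.93 TPM). PHETA2, NPFFR2 and EBF2 did not differ beyond their spread there, nor did FAR2P2 and C5orf63. In the WT-labelled libraries the order was LINC01108 (6.11 TPM), LINC01508 (0.819 TPM), PHETA2 (0.418 TPM), EBF2 (0.289 TPM), FAR2P2 (0.148 TPM), C5orf63 (0.11 TPM) and NPFFR2 (0 TPM). Without LINC01108, a WT-labelled library held at most 14 counts of any of these genes, so their level there rests on few reads.

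All 7 genes passed the filter on low counts, and all 7 were among the 63 of 17564 tested genes called higher at an adjusted p under 0.05 in edgeR, which is 0.359% of the genes tested, while 0.0569% were called lower. Since this contrast chose the genes, nothing is read from that count, nor from their calls in the other fits below. Among the called genes they ranked 2, 9, 10, 12, 13, 14 and 16 by fitted log2 fold change, where the rank of 2 is that of NPFFR2, whose fitted value depends on the prior count. The 7 genes were not set off by a stated threshold. PHETA2, the lowest of them at 4.16, lay next to LEFTY1 at 4.15, a Nodal inhibitor that is not among the 7, and to MT1G, a metallothionein, at 4.17. Their median log2 fold change was 4.48, or 4.38 with NPFFR2 at its lower bound, against 0.00 over all tested genes. Limma-voom called 6 of the 7, without C5orf63. With KO-labelled replicate 1 left out edgeR called 4, without PHETA2, FAR2P2 and C5orf63. Without WT-labelled replicate 1, the library that stood apart, all 7 were called, with log2 fold changes of 4.53 for LINC01108, 3.73 for LINC01508, 4.39 for EBF2, 3.90 for PHETA2, 4.95 for FAR2P2 and 4.80 for C5orf63.

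Relatives and partners of the 7 genes were read from short lists. Over all tested genes 0.416% were called by edgeR in either direction and 9.04% had an unadjusted p under 0.05, so a count of 0 calls in a list of 5 to 16 genes lies near the background and is given with the genes' own values. The EBF list held EBF1, EBF3, EBF4 and the zinc finger partners ZNF423 and ZNF521, which bind EBF proteins. All 5 were tested, and 0 were called by edgeR, by DESeq2 or at an unadjusted p under 0.05. EBF1 had 49, 67, 40 and 32 counts in order of WT-labelled 1 and 2, then KO-labelled 1 and 2, a log2 fold change of -0.60 ± 0.37 (SE, adjusted p = 0.646 in edgeR). EBF3 had 42, 16, 64 and 23 counts and EBF4 had 30, 40, 40 and 13, with the groups overlapping for both. Per length, EBF2 was below these 3 relatives in the WT-labelled libraries, where they had 1.73, 1.27 and 1.78 TPM, and above them in the KO-labelled ones, where they had 1.03, 1.66 and 1.26 TPM. ZNF423 differed by 0.05 ± 0.17 and ZNF521 by -0.36 ± 0.20 on the log2 scale (SE, adjusted p of 0.946 and 0.616 in edgeR).

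EBF2 is known from brown fat and from neurons, so lists of both were read beside it. Of 18 adipocyte and brown fat genes 8 had enough counts for a test and 0 were called (2 at an unadjusted p under 0.05, 0 by DESeq2). FABP4, the fatty acid carrier of fat cells, and ADIPOQ, the fat hormone adiponectin, had 0 counts in all 4 libraries. PRDM16, the coregulator of brown fat, had 118, 104, 107 and 61 counts, a log2 fold change of -0.33 ± 0.31 (SE, adjusted p = 0.762 in edgeR). ZIC1, a marker of brown fat and of the neural plate, had 2255, 2271, 1582 and 1564 counts, a log2 fold change of -0.43 ± 0.15 (SE, adjusted p = 0.41 in edgeR). Of 16 neuronal differentiation genes 10 were tested and 0 were called (2 at an unadjusted p under 0.05, and 1 by DESeq2). The gene called by DESeq2 was STMN2, a stathmin of growing axons, with 115, 147, 675 and 203 counts. Its log2 fold change in edgeR was 1.78 ± 0.51 (SE, adjusted p = 0.424), and it was called without KO-labelled replicate 2 (2.32).

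For NPFFR2, genes of its ligands were at 0. NPFF and NPVF, which encode the RFamide peptides of this receptor family, had 0 counts in all 4 libraries, and the sister receptor NPFFR1 had 0, 7, 0 and 0. Of 17 genes of RFamide and related peptides and their receptors 5 were tested and 0 were called (2 at an unadjusted p under 0.05, 0 by DESeq2). NPY1R, a receptor of neuropeptide Y, had 107, 131, 177 and 181 counts, a log2 fold change of 0.69 ± 0.25 (SE, adjusted p = 0.442 in edgeR). CCKBR, a cholecystokinin receptor, had 103, 148, 168 and 157 counts (log2 fold change 0.47 ± 0.26, SE, adjusted p = 0.618 in edgeR). Per length, CCKBR at 9.15 and 11.5 TPM (WT-labelled and KO-labelled means) was above NPY1R at 5.69 and 8.26 TPM.

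PHETA1, the sister adaptor of PHETA2, was not called. It had 187, 230, 208 and 191 counts, a log2 fold change of 0.03 ± 0.22 (SE, adjusted p = 0.977 in edgeR). Per length PHETA1 stood at 11.8 TPM in the WT-labelled libraries and 10.9 TPM in the KO-labelled ones, so PHETA2 remained below it in both groups. OCRL, the phosphatase that both adaptors bind, differed by -0.31 ± 0.14 on the log2 scale (SE, adjusted p = 0.569 in edgeR). Of 16 tested genes of OCRL partners and endosomal sorting 0 were called (1 at an unadjusted p under 0.05, 0 by DESeq2), IGF2R, RAB5A, VPS35 and SORT1 among them.

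FAR2, the gene that FAR2P2 is a copy of, was not called. It had 639, 760, 757 and 609 counts (log2 fold change 0.05 ± 0.16, SE, adjusted p = 0.944 in edgeR) and the related reductase FAR1 differed by 0.24 ± 0.13 (SE, adjusted p = 0.624). Other copies of FAR2 had few counts. FAR2P1 had 47, 45, 36 and 36 counts, FAR2P3 had 1, 1, 7 and 4, and FAR2P4 had 1, 1, 5 and 0. Of 10 tested genes of fatty acyl reduction and ether lipid synthesis 0 were called (0 at an unadjusted p under 0.05, 0 by DESeq2). AGPS, GNPAT and SELENOI were among those tested.

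The FAR2P2 counts carry an uncertainty of assignment. Of its 50-base stretches in GENCODE 29 transcripts 21.1% occur in another gene as well, 11.3% in FAR2P3 and 7.4% in FAR2P1. How reads with several alignments were counted was not stated in the sources used here. The following 100 bases were picked from a scan of FAR2P2 for a stretch found in the other copies as well. They do not stand for the whole length, but show how little sets the 3 copies apart there. Each copy has 1 mismatch to FAR2P2 here, and capitals mark the 2 positions at which the 3 differ.
FAR2P2, chr2:130431228-130431327, minus strand: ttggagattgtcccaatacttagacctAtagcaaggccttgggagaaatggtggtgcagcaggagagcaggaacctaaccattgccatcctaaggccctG
FAR2P1, chr2:130040425-130040524, minus strand: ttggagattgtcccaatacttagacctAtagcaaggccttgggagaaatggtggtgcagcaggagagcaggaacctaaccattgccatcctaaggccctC
FAR2P3, chr2:130690189-130690288, plus strand: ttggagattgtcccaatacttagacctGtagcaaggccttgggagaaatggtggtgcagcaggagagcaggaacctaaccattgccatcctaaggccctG

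The overlapping pseudogenes KLF2P2 (0, 0, 5 and 3 counts) and CYP4F62P (0, 0, 0 and 2 counts) held few reads beside FAR2P2. For LINC01108, LINC01508, PHETA2 and C5orf63 the share of 50-base stretches found in another gene rounded to 0.0%, and it was 2.1% for NPFFR2 and 0.3% for EBF2.

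**Figure D2:**
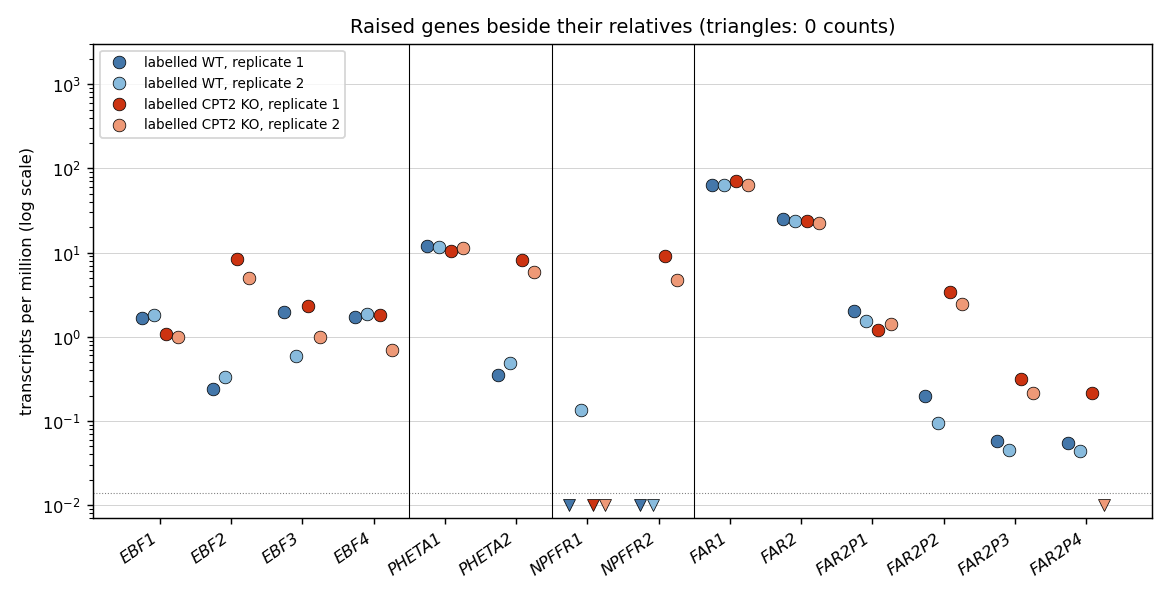
TPM (vertical log axis) of EBF, PHETA, NPFFR and FAR genes in each library, with 1 point per library and triangles below the dotted line for 0 counts. EBF2, PHETA2, NPFFR2 and FAR2P2, chosen for this, lie far apart between the groups. The groups lie close together for PHETA1 (11.8 and 10.9 TPM) and FAR2 (24.6 and 23.0 TPM). Lack of overlap alone does not set the chosen genes apart. It also holds for EBF1, FAR1, FAR2, FAR2P1, FAR2P3 and PHETA1. The share of all tested genes without overlap was not counted, so nothing more is read from this.

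LINC01108 and LINC01508 were set beside other long noncoding RNAs of stem cells and endoderm. Of 14 tested 0 were called by edgeR, where 0.416% of all tested genes were called. The unadjusted p was under 0.05 for 7 of the 14 and for 9.04% of all tested genes. The list was chosen with earlier results of these data known, so nothing is read from that share. DESeq2 called 2, LINC01356 and LINC00261, and limma-voom called LINC00261. ESRG, the most abundant noncoding RNA of the list and a marker of pluripotent cells, had 33719, 23181, 28388 and 22663 counts, a log2 fold change of -0.09 ± 0.21 (SE, adjusted p = 0.923 in edgeR). Per length, LINC01108 at 165 TPM in the KO-labelled libraries was below ESRG at 1478.6 TPM, LINC00678 at 497 TPM and LNCPRESS1 at 204 TPM. It was near GAS5 at 162 TPM and DANCR at 156 TPM, and above MALAT1 at 97.7 TPM.

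The noncoding RNAs of this list with the largest differences did not reach the test's threshold in edgeR. LINC-ROR, a noncoding RNA known from reprogramming, had 12, 66, 225 and 154 counts, a log2 fold change of 2.37 ± 0.48 (SE, adjusted p = 0.115 in edgeR). It was called when either WT-labelled library was left out, at 1.68 without replicate 1 and 3.97 without replicate 2. LINC00458 had 134, 90, 712 and 229 counts (2.09 ± 0.54, SE, adjusted p = 0.385) and LINC01356 had 56, 129, 525 and 197 (2.02 ± 0.48, SE, adjusted p = 0.27). LINC00458 and LINC01356 were called without KO-labelled replicate 2 (2.60 and 2.48). For these 3 noncoding RNAs the groups did not overlap. The share of all tested genes without overlap was not counted, so nothing is read from this. LINC00261, a noncoding neighbour of FOXA2, had 0, 0, 27 and 9 counts. Whether LINC01108 or LINC01508 differed from these RNAs in response was not tested.

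**Figure D3:**
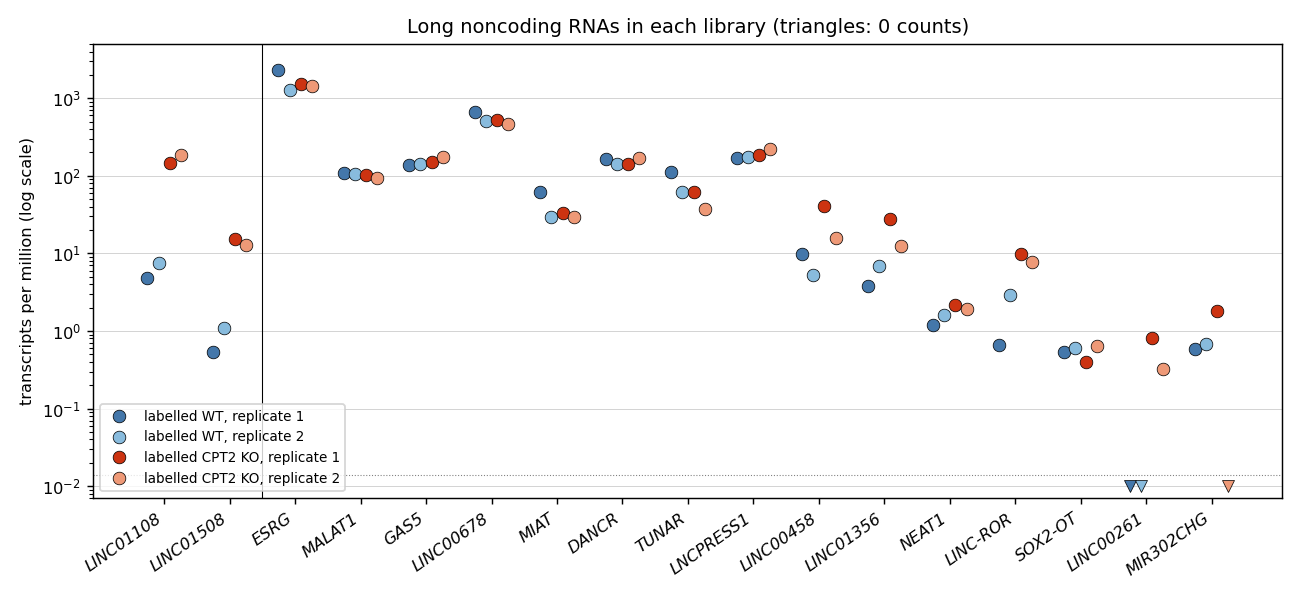
TPM (vertical log axis) of LINC01108, LINC01508 and 15 other long noncoding RNAs in each library, ordered by mean CPM, with 1 point per library and triangles below the dotted line for 0 counts. LINC01108 goes from 6.11 to 165 TPM, while ESRG and LINC00678 stay between 465 and 2301.3 TPM in all 4 libraries.

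No tested gene near the 7 genes was called. Within 500 kb of the 7 genes lay 193 genes, of which 67 were tested, and 0 were called by edgeR, DESeq2 or limma-voom, where 0.416% of all tested genes were called in either direction by edgeR. The unadjusted p was under 0.05 for 6 of the 67, and for 9.04% of all tested genes. The neighbours' log2 fold changes ran from -1.84 to 1.32 with a median of 0.07, and their lowest adjusted p was 0.353. PHETA2 has a very close neighbour. SMDT1, a subunit of the mitochondrial calcium uniporter, begins 0.25 kb past its end (log2 fold change 0.01 ± 0.32, SE, adjusted p = 0.998 in edgeR). MARCH3, a ubiquitin ligase 11.8 kb from C5orf63, differed by 0.24 ± 0.27 (SE, adjusted p = 0.81 in edgeR), and PTPN18, a phosphatase 41.3 kb from FAR2P2, by -0.08 ± 0.22 (SE, adjusted p = 0.936).

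LINC01108, LINC01508, EBF2 and NPFFR2 lie far from any gene with enough counts for a test. The nearest was CD83 for LINC01108 (143 kb), DIRAS2 for LINC01508 (176 kb), PPP2R2A for EBF2 (246 kb) and ADAMTS3 for NPFFR2 (133 kb). On their other sides the nearest were AL109914.1 (312 kb), none for LINC01508, CDCA2 (334 kb) and SLC4A4 (460 kb), and ARHGEF4 (406 kb) and MEGF10 (217 kb) lay on the far sides of FAR2P2 and C5orf63. The nearest tested genes on each side of the 7 genes, 13 in all, differed by -0.13 to 0.54 on the log2 scale, with a lowest adjusted p of 0.695 in edgeR. Without WT-labelled replicate 2, which leaves only the library that stood apart in that group, 4 neighbours were called. They were DOCK5, SDAD1P1 and BNIP3L near EBF2 and SREBF2, the transcription factor of cholesterol synthesis genes, near PHETA2. In the same fit 490 genes were called higher and 643 lower over the whole table.

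**Figure D4:**
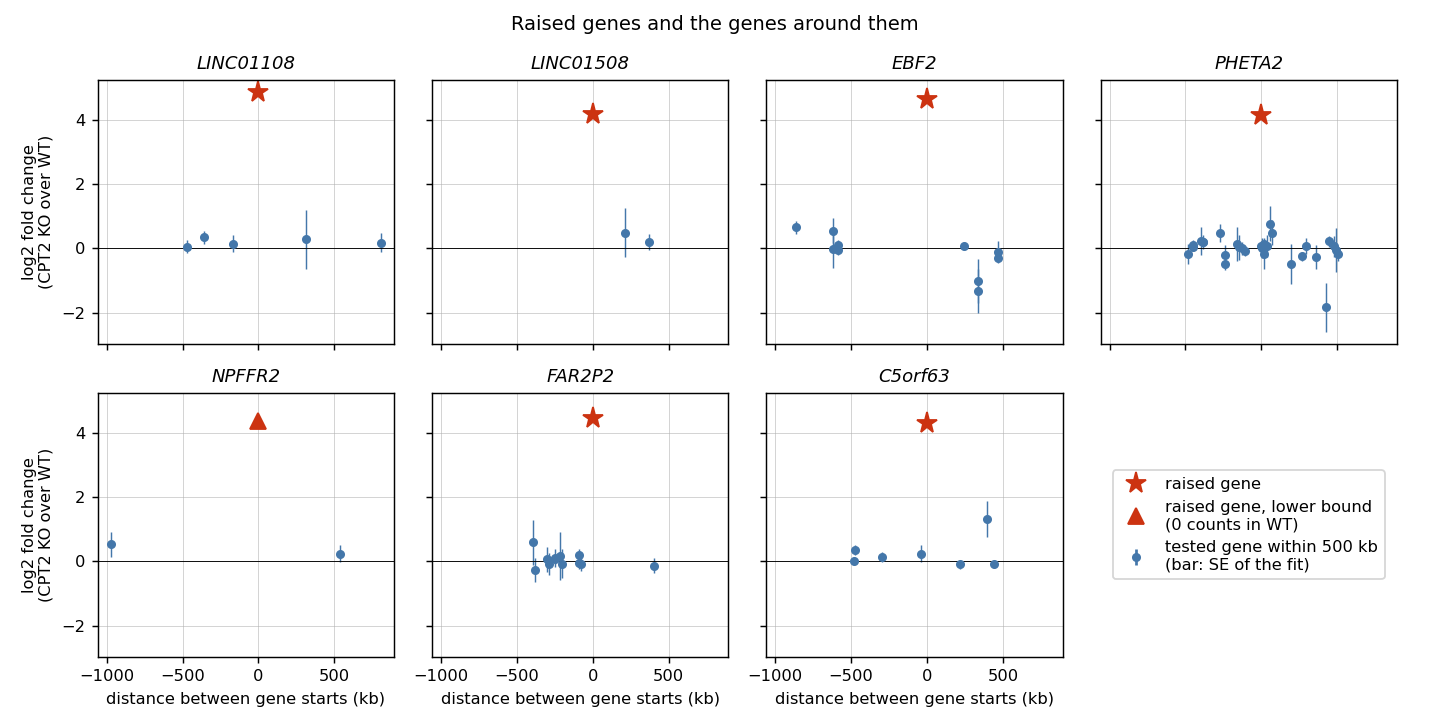
Fitted log2 fold change (vertical axis, KO-labelled libraries over WT) of each of the 7 genes and of the 67 tested genes within 500 kb, against the distance between gene starts in kb (horizontal axis), with 1 panel per gene and bars for the SE. The 7 genes stand at 4.16 to 4.88, with NPFFR2 drawn at its lower bound of 20.8-fold, and the neighbours between -1.84 and 1.32.

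The KO-labelled libraries were not alike in their mesendoderm transcripts, which mark the first step from stem cells towards endoderm. The summed level of 12 mesendoderm markers was 16.3 and 17.4 CPM in the WT-labelled libraries and 348 and 121 CPM in the KO-labelled replicates 1 and 2. Of 11 tested, 5 rose (NODAL, LEFTY1, LEFTY2, FGF8 and WNT3) at an adjusted p under 0.05 in edgeR, where 0.359% of all tested genes did, and 0 fell. DESeq2 called 10 of the 11, and 10 had an unadjusted p under 0.05. This list was chosen with earlier results of these data known, so nothing is read from these counts. WNT3 lost its call without KO-labelled replicate 1 (log2 fold change 1.78), while EOMES, CER1 and MIXL1 were called when either KO-labelled library was left out. EVX1, a homeobox gene of the primitive streak, had 66, 47, 11 and 11 counts, a log2 fold change of -2.27 ± 0.50 (SE, adjusted p = 0.117 in edgeR), and was called lower without WT-labelled replicate 2 (-2.57). GSC had 5, 0, 63 and 23 counts (adjusted p = 0.101 in edgeR) and was called higher when either WT-labelled library, or KO-labelled replicate 2, was left out. MESP1 had 8, 4, 2 and 1 counts and was not tested. Markers of definitive endoderm summed to 13.0, 9.13, 32.6 and 15.5 CPM, with 0 of 4 tested called (2 at an unadjusted p under 0.05, 1 by DESeq2). GATA4, called by DESeq2, had 5, 4, 113 and 30 counts (log2 fold change 4.01 ± 0.76, SE, adjusted p = 0.0661 in edgeR). It came to 2.93 without KO-labelled replicate 1. FOXA2 differed by 5.67 ± 1.65, CXCR4 by 0.75 ± 0.42 and HHEX by 0.28 ± 0.27 on the log2 scale (SE). Among those not tested, SOX17 had 0, 0, 46 and 7 counts and GATA6 had 0, 0, 74 and 7. FOXA1 went the other way, with 8, 19, 3 and 2. Fewer cells of a type and less RNA per cell cannot be told apart in these bulk samples, and the part of such markers in the levels of the 7 genes was not tested.

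The 7 genes differed between the KO-labelled replicates by less than EOMES, TBXT or CER1 did. They were chosen as high in both of those libraries, which favours small ratios, so nothing is read from this comparison. CER1, a secreted Nodal inhibitor, was 11.1 times higher in replicate 1 than in replicate 2 (exact 95% counting interval 9.59 to 13.0), EOMES 6.53 times (5.35 to 8.05) and TBXT 7.45 times (4.36 to 13.7). LINC01108 went the other way, at 0.764 times (0.727 to 0.801). LINC01508 at 1.16 times, PHETA2 at 1.33 times and FAR2P2 at 1.31 times had intervals that include 1. EBF2 at 1.62 times (1.35 to 1.95), NPFFR2 at 1.88 times (1.36 to 2.62) and C5orf63 at 2.78 times (1.91 to 4.16) were higher in replicate 1 than counting error allows. These 3 lay outside the range of 0.727 to 1.45 that holds the central 90% of 13056 tested genes with at least 100 counts in the pair. That range was not matched for count level, and NPFFR2 and C5orf63 had only 184 and 158 counts in the pair. The intervals cover counting error between 2 libraries only.

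The markers that were called higher had ratios near those of the 7 genes. With 2 libraries per group a call favours genes whose replicates agree, so nothing is read from this likeness. LEFTY1 stood at 0.976 times, LEFTY2 at 1.12 times, FGF8 at 1.24 times, NODAL at 1.37 times and WNT3 at 1.53 times. MIXL1 (3.08 times), GATA4 (3.09 times), SOX17 (5.4 times) and FOXA2 (12.5 times) were further apart. POU5F1 (0.917 times), NANOG (0.924 times) and SOX2 (1.04 times), the core pluripotency factors, were close to even. The neuroectoderm markers summed to 63.3, 49.1, 30.1 and 30.6 CPM, with 2 of 5 tested lower at an adjusted p under 0.05 in edgeR (SOX1 and SIX6), where 0.0569% of all tested genes were. DESeq2 called 3 of the 5, and 3 had an unadjusted p under 0.05. The neuroectoderm list was also chosen with earlier results of these data known, so nothing is read from these counts. The calls of SOX1 and SIX6 were lost when either KO-labelled library was omitted. The fibroblast markers summed to 485, 512, 463 and 448 CPM, with 0 of 5 called by edgeR (1 at an unadjusted p under 0.05, 1 by DESeq2).

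**Figure D5:**
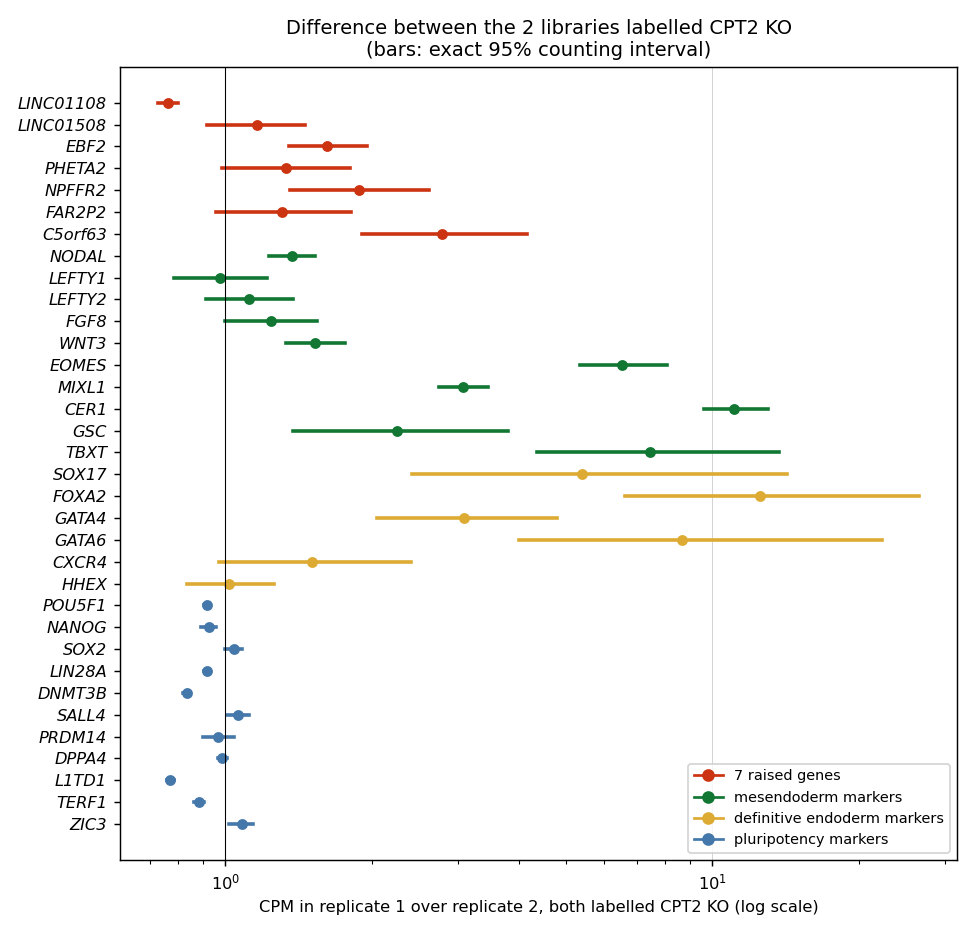
Ratio of CPM in replicate 1 over replicate 2, both labelled CPT2 KO (horizontal log axis), for the 7 genes and for markers with at least 50 counts in the pair, with exact 95% counting intervals as bars. LINC01108 lies left of 1 at 0.764, the 7 genes reach at most 2.78, and CER1 and FOXA2 lie at 11.1 and 12.5.

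Within the set, the profiles over the 4 libraries were compared by the Euclidean distance between centred log2 CPM. The closest pair was LINC01508 and PHETA2 at 0.45, and the farthest was LINC01108 and C5orf63 at 2.08, the genes whose replicate ratios differed most. All distances are over only 4 libraries and include the group difference that chose the genes, so they describe and test nothing.

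By the same distance, the genes outside the set nearest to LINC01508 were LEFTY1 (0.32) and ALPK3 (0.41), a kinase known from heart muscle. For PHETA2 they were ALPK3 (0.31) and NODAL (0.32), and for EBF2 PRDX1P1 (0.29), a pseudogene, and FGF8 (0.37). C5orf63 was nearest to GATA4 (0.37) and FGF4 (0.4), and FAR2P2 to LEFTY2 (0.53) and WNT8A (0.63). For LINC01108 the nearest were PCDHGC3 (0.51) and FGF8 (0.6), and for NPFFR2 ZNF37A (0.78) and FGF8 (0.98). FGF8, a signal of the primitive streak with 4, 7, 214 and 142 counts, was thus among the nearest of 3 of the 7 genes. PCDHGC3, ZNF37A, LEFTY1, LEFTY2 and NODAL have exons that overlap another gene. Their counts can include reads of it or lack reads of their own.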

How the data were processed

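The authors deposited raw counts for each gene symbol beside gene lengths, per the file headers, with no normalization. HISAT2 2.1.0 and featureCounts 1.6.4 were used on hg38 (GRCh38), per the submitters' processing notes. The annotation release, strand setting and handling of multiply aligned reads were not stated in the sources used here.

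The 7 genes, the gene lists and the tests were chosen with earlier results of these data known. Genes with too few counts were removed with filterByExpr by group. CPM used TMM-scaled library sizes, and 1 count was worth 0.0485 to 0.0603 CPM. TPM used the deposited gene lengths. Groups were compared with the quasi-likelihood test of edgeR 4.0.16 (robust, R 4.3.3), group as the only term, with Benjamini-Hochberg adjustment over 17564 genes at 0.05. Log2 fold changes are CPT2 KO over WT as labelled. Each group has 2 libraries, whose number limits precision.

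Besides the 7 genes and CPT2, genes were named by rule: the 2 nearest profiles of each gene, called genes within 500 kb and the nearest tested gene on each side, called list members and up to 4 of each list by mean CPM, and the mesendoderm markers. EBF4, NPFFR1, NPFF, NPVF, PHETA1, OCRL, FAR2, FAR2P1, FAR2P3, FAR2P4, FABP4, ADIPOQ, LINC-ROR, LINC00458, LINC01356, LINC00261, LNCPRESS1, DANCR, MT1G, KLF2P2, CYP4F62P, SOX17, GATA4, GATA6, FOXA2, DOCK5, SDAD1P1, BNIP3L and SREBF2 fall outside this rule and were picked with their values in view. FOXA1 was picked in the same way. The alternatives were other scalings, other filters on low counts, DESeq2 1.42.0 and limma-voom (limma 3.58.1). They also took in the replicate number as a block, and each library left out. Some neighbouring genes are not reported here.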

Additional observations from a re-analysis of the deposited data

How the results depend on the processing

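All 7 genes were higher in the KO-labelled libraries under all 11 alternatives, which follows from how they were chosen. The losses of call are given in the report, and NPFFR2 came to 7.54 on the log2 scale with limma-voom. Genes called higher and lower over the whole table numbered 63 and 10, and 101 and 23 without a filter on low counts, 149 and 46 with DESeq2, and 23 to 490 and 1 to 643 with a library left out, when an arm of 1 library is assumed to vary like the other group. Calls within 500 kb went from 0 to 4 with a library left out. In the lists, DESeq2 called 1 neuronal gene and 2 noncoding RNAs, and limma-voom 1 noncoding RNA. With a library left out, calls ranged from 0 to 1 in the neuronal, RFamide and PHETA1 lists and from 0 to 4 for noncoding RNAs. The neuronal call (STMN2) came without KO-labelled replicate 2, and KISS1R, VPS29 and the 4 noncoding RNAs (LINC-ROR, TUNAR, MIAT and NEAT1) were called without WT-labelled replicate 2. The cause was not tested.

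With the replicate number as a block, 233 genes were called higher and 140 lower, and 3 noncoding RNAs of the list were called. EOMES, CER1, GSC and EVX1 were called as well. Same-numbered libraries share only a number (correlation of deviations 0.173 over 2 pairs).

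Uncalled genes near 0 changed sign with a library left out, over ranges of log2 fold change of -0.40 to 0.30 for ESRG, -0.12 to 1.59 for EBF3, -1.18 to 0.15 for EBF4, -0.11 to 0.24 for ZNF423, -0.05 to 0.11 for PHETA1, -0.29 to 0.38 for SMDT1, -0.03 to 0.48 for MARCH3 and -0.27 to 0.13 for PTPN18. SMDT1 was also at -0.02 scaled by library size only and at -0.00 without a filter. The levels in the WT-labelled libraries rest on few reads, with 14 counts or fewer of each of the 7 genes other than LINC01108.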
